A study of Rattus norvegicus with 12 samples.

Results

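The 10 genes described here are 4 subunits of the transcription factor NF-kB (Nfkb1, Nfkb2, Rela and Relb), 3 genes whose products restrain it (Nfkbia, Tnfaip3 and Tnip1) and 3 genes that it is known to induce (Birc3, Tnfaip2 and Icam1). They were picked by name from a count table of 24660 genes, and all 10 were in the table and passed the filter on low counts. The cells were NRK-52E, a wild-type rat line of tubular epithelial cells, in 4 groups of 3 libraries. In the 3D-EV group, 24 h of TGF-beta1, a profibrotic cytokine, came before 48 h of extracellular vesicles (EVs) from a more productive method, at 500000000 particles/ml. The 2D-EV group differed in that the vesicles came from the conventional method. The TGF-beta1 group received the cytokine without vesicles, and the labels name no agent for the control group. The labels give the cytokine dose as 10 µg/ml, whose unit is in doubt. Not given in the sources used here are the cells that made the vesicles, whether TGF-beta1 stayed on during the 48 h, and the harvest time of cells without vesicles. The study set out to compare both vesicle preparations on a fibrosis-like state induced in these cells.

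NF-kB subunits act as dimers that are held in the cytoplasm by inhibitors such as the product of Nfkbia. When cytokine or Toll-like receptors signal, the inhibitor is degraded, the dimers enter the nucleus and switch on genes of inflammation, adhesion and cell survival. Several of these genes, Nfkbia and Tnfaip3 among them, encode brakes on the same pathway, and in kidney tubules the pathway is known for driving inflammatory gene expression after injury. Transcript levels do not show whether the subunits are in the nucleus.

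Library totals were between 32888125 and 39754319 counts, so that 1 count was worth 0.0255 to 0.0305 CPM, the unit used below, in which counts are divided by the TMM-scaled library total. Fn1, the fibronectin gene and a target of TGF-beta signalling, averaged 991 CPM in 3D-EV cells, 894 CPM in 2D-EV cells, 935 CPM in TGF-beta1 cells and 585 CPM in control cells. Of 8 tubular epithelial markers, Krt8 was at 1010 to 1250 CPM, the other 7 were below 1 CPM in every library, and Epcam and Pax2 were at 0 throughout. The tubular list summed to 1140 to 1180 CPM in 3D-EV cells, 1160 to 1190 in 2D-EV cells, 1170 to 1250 in TGF-beta1 cells and 1010 to 1020 in control cells. Of 8 immune markers, 5 (Ptprc, C1qa, C1qb, Itgam and Tyrobp) were at 0 in all 12 libraries. The summed immune list held 4.17 to 4.56 CPM in 3D-EV cells, 3.81 to 4.20 in 2D-EV cells, 3.20 to 4.20 in TGF-beta1 cells and 3.79 to 4.06 in control cells, nearly all of it Cd68. The 4 endothelial markers summed to 2.02 to 2.28 CPM in 3D-EV cells, 2.01 to 2.84 in 2D-EV cells, 1.70 to 2.47 in TGF-beta1 cells and 2.19 to 2.73 in control cells. The 5 fibroblast and pericyte markers, summed to 159 to 162 CPM in 3D-EV cells, 157 to 164 CPM in 2D-EV cells, 142 to 160 CPM in TGF-beta1 cells and 211 to 224 CPM in control cells, and Dcn was at 2 counts or fewer in every library. Of these, Col14a1 averaged 137 CPM in 3D-EV cells, 138 in 2D-EV cells, 130 in TGF-beta1 cells and 199 in control cells. Pdgfrb averaged 23.2 CPM in 3D-EV cells, 21.4 in 2D-EV cells, 21.3 in TGF-beta1 cells and 18.8 in control cells. Col14a1 and the tubular list, nearly all Krt8, thus separated control cells from the others in opposite directions, as several results below separate them, and the part of these markers in the results was not tested.

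Promoters of 8 of the 10 genes were found in RefSeq (build GRCr8, not the build of the counts), all but Relb and Birc3. The window ran from 250 bases before to 50 bases after the annotated start. The stretches below hold matches to the kappa-B motif, the DNA letters that NF-kB dimers are known to bind, searched on both strands. They are shown beside the calls in TGF-beta1 cells against control cells. Of the genes with matches, Tnfaip3 alone was higher, and Nfkbia, Nfkb1 and Icam1 were lower. Nfkb2 and Tnip1 were not called, with log2 fold changes of -0.02 and -0.12. Capitals mark a match to the 10-letter kappa-B consensus, except in Icam1, where they mark the 9-letter form GGAATTTCC read on the other strand. Each sequence is written 5′ to 3′ on the strand of its gene.
Nfkb1, chr2:226805443-226805464, minus strand: tcagtGGGAATTTCCagccagg
Nfkb2, chr1:255108329-255108373, plus strand: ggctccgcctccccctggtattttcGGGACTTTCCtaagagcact
Nfkbia, chr6:78597073-78597128, minus strand: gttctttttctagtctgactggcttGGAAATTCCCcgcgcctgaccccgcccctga
Tnfaip3, chr1:15544000-15544071, minus strand: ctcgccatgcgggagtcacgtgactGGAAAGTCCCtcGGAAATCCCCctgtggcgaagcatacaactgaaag
Tnip1, chr10:39585011-39585072, minus strand: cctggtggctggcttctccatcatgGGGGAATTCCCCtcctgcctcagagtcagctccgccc
Icam1, chr8:27829602-27829660, plus strand: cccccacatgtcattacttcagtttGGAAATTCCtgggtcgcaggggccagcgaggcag

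The 10-letter consensus was in 5 of the 8 promoters (Nfkb1, Nfkb2, Nfkbia, Tnfaip3 and Tnip1), and in 1400 of all 33469 promoters of the same length (4.18%). The 9-letter form was in 3 of the 8 (Nfkb1, Nfkbia and Icam1) and in 111 of the 33469 (0.332%). The genes were picked for their known place in the NF-kB pathway, so these shares only describe them and were not tested. In Nfkb1 and Nfkbia both forms overlap at the same place. Tnfaip3 held 3 consensus matches, beginning at -170, -67 and -55 bases from the start, of which the last 2 are printed above. In Tnip1, 3 matches overlap in a palindrome that begins at -86. The match of Nfkb1 lies just after the start, at bases 4 to 13, and that of Icam1 begins at -218. Neither form was found in the windows of Rela and Tnfaip2.

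**Figure D1:**
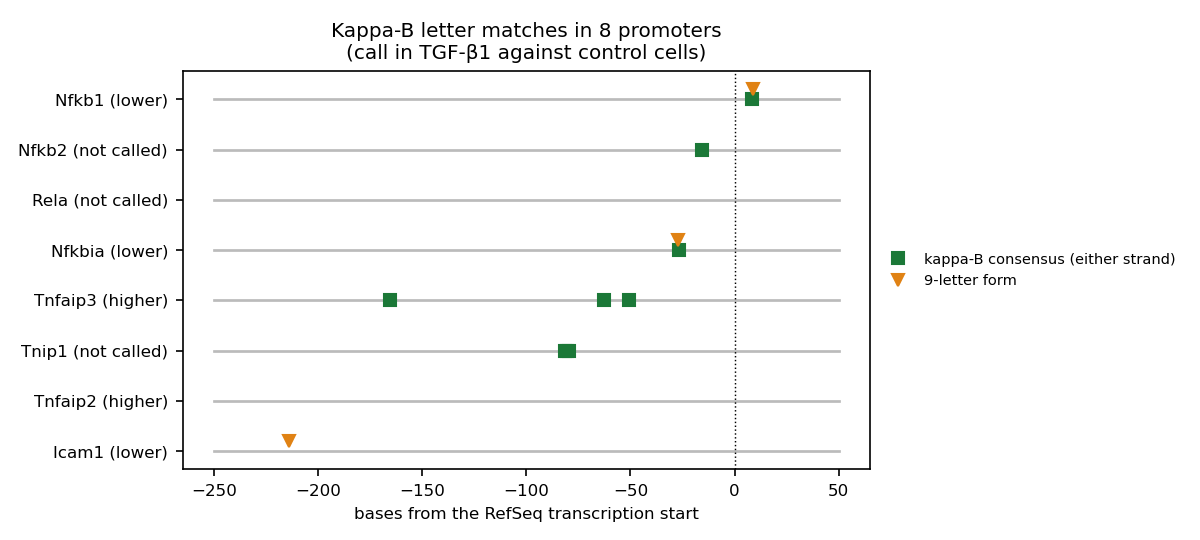
Kappa-B letter matches (10-letter consensus, green squares; 9-letter form, orange triangles) in the promoter windows of 8 genes, by distance in bases from the RefSeq start. The word beside each gene gives its call in TGF-beta1 cells against control cells. Of the genes with matches, Tnfaip3 with 3 was higher, Nfkbia, Nfkb1 and Icam1 were lower, and Nfkb2 and Tnip1 were not called. Of those with none, Tnfaip2 was higher and Rela was not called.

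In TGF-beta1 cells against control cells, the cytokine's own comparison, 5 of the 10 genes changed (edgeR quasi-likelihood test, Benjamini-Hochberg adjusted p below 0.05), beside 22.0% of all 14184 genes tested. Tnfaip2 and Tnfaip3 rose (2 of 10, beside 11.8% of all genes), and Nfkbia, Icam1 and Nfkb1 fell (3 of 10, beside 10.2%). Induced genes and inhibitors were thus split between both directions. The median log2 fold change of the 10 genes was -0.07, against -0.01 for all genes, and the median absolute change was 0.16 against 0.13. All changes were small: the largest rise was 1.35-fold. In bulk libraries, fewer cells with a transcript and less of it per cell cannot be told apart. Since separate cultures are not stated in the labels, p-values here cover only library-to-library spread, which may be technical.

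Of the 4 subunits, Nfkb1, which encodes the precursor of the smallest DNA-binding subunit, fell. Its libraries stood at 54.9, 53.4 and 56.4 CPM in TGF-beta1 cells and at 59.3, 58.8 and 63.6 CPM in control cells. The groups did not overlap, but the gap between them was narrower than the range of the control libraries. The log2 fold change was -0.14 (SE 0.04, adjusted p = 0.0253, edgeR). With TGF-beta1 replicate 1, TGF-beta1 replicate 2 or control replicate 3 left out it was no longer called, with adjusted p up to 0.128 in the edgeR fits that left out a library.

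The other subunits did not pass, and their libraries overlapped between the groups. Rela, the main transactivating subunit, averaged 69.4 ± 2.11 CPM in TGF-beta1 cells and 69.8 ± 0.520 CPM in control cells (SD, n = 3 each), with a 95% interval of the log2 fold change of -0.12 to 0.10. Nfkb2, the precursor that serves the non-canonical branch, averaged 32.9 ± 1.93 CPM in TGF-beta1 cells and 33.3 ± 1.40 CPM in control cells, with an interval of -0.16 to 0.13. Relb, the partner of the Nfkb2 product, averaged 5.72 ± 0.421 CPM in TGF-beta1 cells and 5.45 ± 0.505 CPM in control cells. Its interval, -0.21 to 0.35, was wider. Relb rested on 124 to 257 counts per library over the 12 libraries, where counting error alone is 8.98% at the lowest count. The fit also took in the spread of the 2D-EV libraries, whose SD was 16.9% of their mean.

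The 3 inhibitors moved differently. Nfkbia, which encodes the inhibitor that binds and retains the dimers, stood at 22.4, 22.0 and 19.8 CPM in TGF-beta1 cells and at 26.9, 25.2 and 26.4 CPM in control cells. Every TGF-beta1 library was below every control library. It fell by 18.5%, or 0.29 on the log2 scale (SE 0.06, adjusted p = 0.00402, edgeR).

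Tnfaip3, a ubiquitin-editing enzyme that switches off signalling upstream of the kinase complex, did the opposite. Its libraries stood at 31.6, 31.0 and 31.9 CPM in TGF-beta1 cells and at 23.5, 25.7 and 25.9 CPM in control cells. The TGF-beta1 libraries lay close together and well above the control libraries. The rise was 1.26-fold (log2 fold change 0.33, SE 0.06, adjusted p = 0.000656, edgeR).

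Tnip1, a ubiquitin-binding partner of the Tnfaip3 product, stood at 72.3, 70.7 and 73.6 CPM in TGF-beta1 cells and at 77.7, 80.4 and 77.3 CPM in control cells. The groups did not overlap, yet the difference did not pass (log2 fold change -0.12, SE 0.05, adjusted p = 0.115, edgeR). In a fit of these 2 groups alone it passed, with an adjusted p of 0.0409.

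Of the 3 induced genes, Tnfaip2, which encodes a protein related to the exocyst and is named for its induction by tumour necrosis factor, had the clearest difference. Its libraries stood at 147, 151 and 145 CPM in TGF-beta1 cells and at 109, 108 and 110 CPM in control cells. The gap between the groups was several times the spread within either. This was a log2 fold change of 0.44 (SE 0.03, 95% interval 0.37 to 0.51, adjusted p = 3.34e-07, edgeR).

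Icam1, an adhesion molecule through which leukocytes attach to epithelium, was among the genes that fell. It stood at 147, 150 and 155 CPM in TGF-beta1 cells and at 172, 166 and 176 CPM in control cells. All TGF-beta1 libraries were below all control libraries. The level fell by 11.9%, or 0.18 on the log2 scale (SE 0.04, adjusted p = 0.00585, edgeR).

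Birc3, a ubiquitin ligase that inhibits apoptosis, was the most weakly counted gene, with 92 to 146 counts per library over the 12 libraries and 10.4% counting error at the lowest. It stood at 2.65, 2.73 and 3.63 CPM in TGF-beta1 cells and at 3.84, 3.50 and 3.22 CPM in control cells. The third TGF-beta1 library lay inside the control range, so the groups overlapped, and the difference did not pass (log2 fold change -0.23, 95% interval -0.56 to 0.10, adjusted p = 0.335, edgeR). Birc3 has a close paralog, Birc2, and reads shared between them could have been split by the counting, so its level is uncertain.

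**Figure D2:**
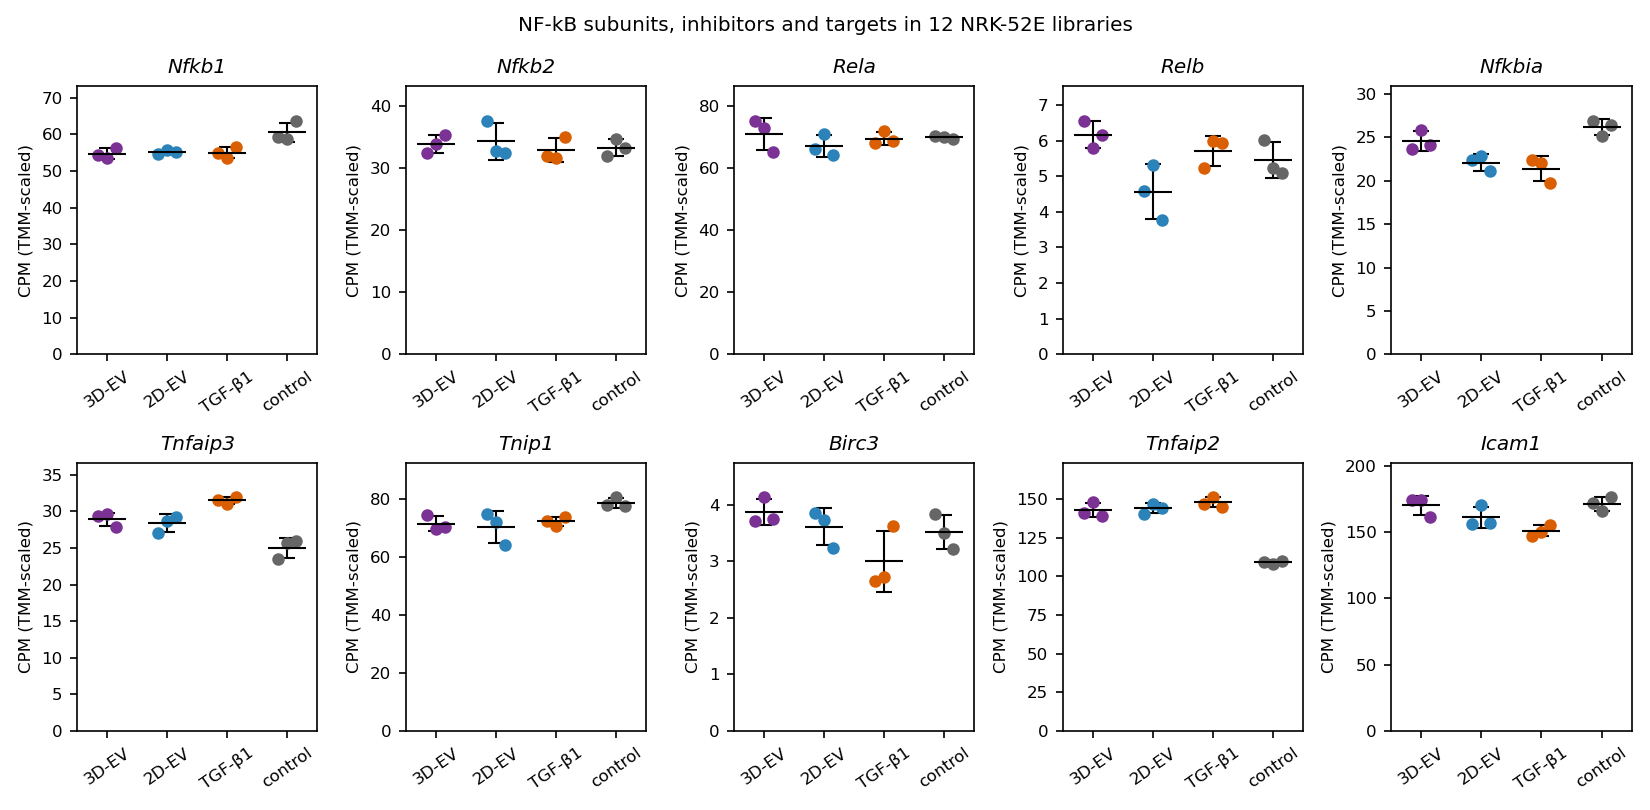
TMM-scaled CPM of the 10 genes in 12 libraries (points), with the mean and SD of each group of 3 (bars); every axis starts at 0. Tnfaip2 is at 139 to 151 CPM in the 3 groups given TGF-beta1 and at 108 to 110 CPM in control cells, while Nfkb2, Rela, Relb and Birc3 overlap between TGF-beta1 and control cells.

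In both EV groups against TGF-beta1 cells, none of the 10 genes passed in the edgeR fit. Besides the vesicles, harvest time and the length of TGF-beta1 exposure may differ between these groups, and their part was not tested. With 3D-EVs the count was 0 of 10 with edgeR (0% of all genes), 0 with DESeq2 and 0 with limma-voom, and 3 of 10 had an unadjusted p below 0.05. With 2D-EVs it was 0 of 10 with edgeR (0.0282% of all genes, 4 genes), 0 with DESeq2 and 0 with limma-voom, and again 3 of 10 had an unadjusted p below 0.05. Over all genes, 1027 in the 3D-EV comparison and 1007 in the 2D-EV comparison had an unadjusted p below 0.05. Libraries of the groups did not overlap for 4 of 10 genes with 3D-EVs, beside 13.6% of all genes, and for 2 of 10 with 2D-EVs, beside 12.4%. The 2 comparisons share the TGF-beta1 libraries, and that group is also one side of the comparison with control cells, so a chance deviation of those 3 libraries enters all of them.

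Icam1 stood at 174, 174 and 161 CPM with 3D-EVs and 156, 170 and 157 CPM with 2D-EVs, against 147 to 155 CPM in TGF-beta1 cells. Each EV library was above each TGF-beta1 library, and 2 of the 3 3D-EV libraries were also above every 2D-EV library. Against TGF-beta1 cells the log2 fold change was 0.17 with 3D-EVs (95% interval 0.08 to 0.26, adjusted p = 0.455, edgeR) and 0.10 with 2D-EVs (interval 0.00 to 0.19, adjusted p = 0.664). With 3D-EVs the adjusted p was between 0.376 and 0.697 in the edgeR and limma-voom fits of all libraries, 0.0893 with DESeq2 on the filtered genes and 0.0452 with DESeq2 on all genes above 0, a setting added after the data were seen.

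Nfkbia stood at 23.7, 25.9 and 24.1 CPM with 3D-EVs and 22.4, 22.9 and 21.1 CPM with 2D-EVs, against 19.8 to 22.4 CPM in TGF-beta1 cells. The 3D-EV libraries were above all TGF-beta1 libraries and the 2D-EV libraries overlapped them. Against TGF-beta1 cells Nfkbia had a log2 fold change of 0.20 with 3D-EVs (95% interval 0.06 to 0.34, adjusted p = 0.597) and 0.05 with 2D-EVs (-0.09 to 0.19, adjusted p = 0.92), from the edgeR fit. Neither passed.

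Tnfaip3 stood at 29.4, 29.6 and 27.9 CPM with 3D-EVs and 27.1, 28.7 and 29.3 CPM with 2D-EVs, against 31.0 to 31.9 CPM in TGF-beta1 cells. Both EV groups lay below the narrow TGF-beta1 range and above the control range. These were log2 fold changes of -0.12 with 3D-EVs (95% interval -0.24 to 0.00, adjusted p = 0.682) and -0.15 with 2D-EVs (-0.27 to -0.03, adjusted p = 0.57), from the edgeR fit.

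Birc3 stood at 3.72, 4.13 and 3.75 CPM with 3D-EVs and 3.85, 3.74 and 3.23 CPM with 2D-EVs, against 2.65 to 3.63 CPM in TGF-beta1 cells. Only the 3D-EV libraries were all above that range, by a margin of a few counts. Its log2 fold change was 0.36 with 3D-EVs (95% interval 0.04 to 0.69, adjusted p = 0.643, edgeR) and 0.27 with 2D-EVs (-0.06 to 0.60, adjusted p = 0.791).

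Relb stood at 6.55, 5.78 and 6.16 CPM with 3D-EVs and 4.58, 5.32 and 3.78 CPM with 2D-EVs, against 5.23 to 5.98 CPM in TGF-beta1 cells. The 2D-EV libraries reached lower than any other group and varied most, with an SD of 16.9% of the mean. The log2 fold change was 0.11 with 3D-EVs (95% interval -0.17 to 0.39, adjusted p = 0.912, edgeR) and -0.32 with 2D-EVs (-0.61 to -0.04, adjusted p = 0.606).

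The remaining genes overlapped between each EV group and TGF-beta1 cells. Tnfaip2 stood at 141, 148 and 139 CPM with 3D-EVs and 140, 147 and 144 CPM with 2D-EVs, close to the 145 to 151 CPM of TGF-beta1 cells. Its 95% intervals of the log2 fold change were -0.12 to 0.03 with 3D-EVs and -0.11 to 0.03 with 2D-EVs, so a shift as large as the 0.44 seen with TGF-beta1 lay outside both. Nfkb1 averaged 54.7 ± 1.42 CPM in 3D-EV cells, 55.1 ± 0.559 CPM in 2D-EV cells and 54.9 ± 1.50 CPM in TGF-beta1 cells (SD, n = 3 each), with intervals within 0.10 of 0 on the log2 scale. For Rela, Nfkb2 and Tnip1 the absolute log2 fold changes were at most 0.06.

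**Figure D3:**
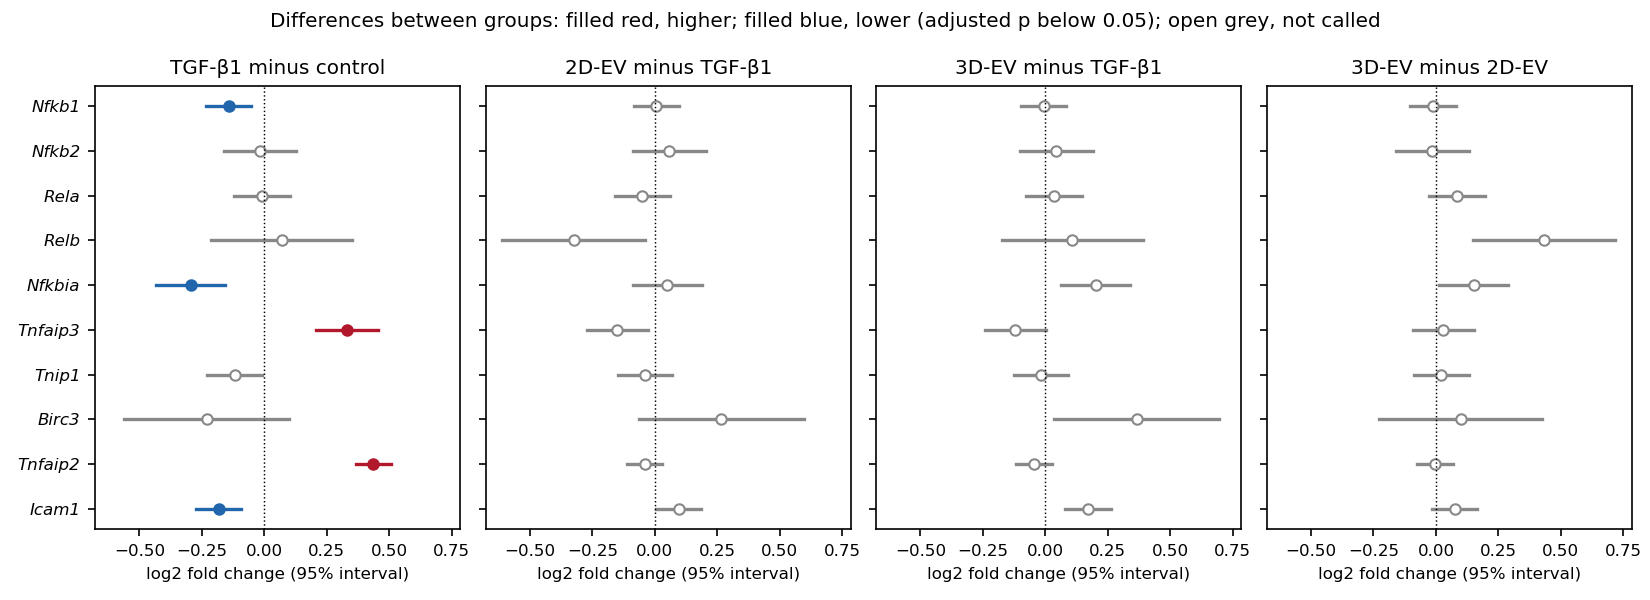
Log2 fold changes of the 10 genes with 95% intervals from the edgeR fit, in 4 comparisons (panels). Filled points passed an adjusted p of 0.05: Tnfaip2 and Tnfaip3 higher, and Nfkb1, Nfkbia and Icam1 lower, in TGF-beta1 cells against control cells. No point is filled in the 3 panels that involve vesicles, where the intervals of Relb and Birc3 are the widest.

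Between the vesicle preparations, 0 of the 10 genes passed in 3D-EV cells against 2D-EV cells (edgeR; 0.00705% of all genes, 1 gene), 0 with DESeq2 and 0 with limma-voom. An unadjusted p below 0.05 was seen for 2 of the 10 genes and for 978 of all genes. Libraries did not overlap for the same 2 genes, beside 11.4% of all genes. They were Relb (log2 fold change 0.43, 95% interval 0.15 to 0.72, adjusted p = 0.618, edgeR) and Nfkbia (0.15, interval 0.01 to 0.29, adjusted p = 0.697). Icam1 was at 170 ± 7.29 CPM in 3D-EV cells and at 161 ± 7.81 CPM in 2D-EV cells (SD, n = 3 each), a difference of 0.08 with an interval of -0.02 to 0.17. For Tnfaip2, Nfkb1 and Tnfaip3 the intervals were -0.08 to 0.07, -0.10 to 0.08 and -0.09 to 0.15. Intervals over the 10 genes ran from -0.23 to 0.72, so differences of that size between the preparations were not excluded for the weakly counted genes.

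The EV groups were also set against control cells, with the TGF-beta1 values beside them. In 3D-EV cells 3 of 10 genes changed (edgeR; 23.0% of all genes), Tnfaip2 and Tnfaip3 higher (2 of 10, beside 12.2%) and Nfkb1 lower (1 of 10, beside 10.8%). In 2D-EV cells 5 of 10 changed (18.6% of all genes), Tnfaip2 and Tnfaip3 higher (2 of 10, beside 10.5%) and Nfkbia, Nfkb1 and Tnip1 lower (3 of 10, beside 8.13%). These comparisons share the control libraries with each other and with the TGF-beta1 comparison.

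Tnfaip2 was the steadiest of these genes. Its log2 fold change against control cells was 0.39 in 3D-EV cells (adjusted p = 1.16e-06, edgeR), 0.40 in 2D-EV cells (1.6e-06) and 0.44 in TGF-beta1 cells. It passed under every setting and with any single library left out, in all 3 comparisons. Tnfaip3 was 0.21 higher in 3D-EV cells (adjusted p = 0.016), 0.18 in 2D-EV cells (0.0401) and 0.33 in TGF-beta1 cells.

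Nfkbia and Icam1 gave other values in the 2 EV groups. The log2 fold change of Nfkbia against control cells was -0.09 in 3D-EV cells (95% interval -0.23 to 0.04, adjusted p = 0.342, edgeR), -0.24 in 2D-EV cells (adjusted p = 0.0156) and -0.29 in TGF-beta1 cells. That of Icam1 was -0.01 in 3D-EV cells (interval -0.10 to 0.08, adjusted p = 0.881), -0.09 in 2D-EV cells (interval -0.18 to 0.00, adjusted p = 0.184) and -0.18 in TGF-beta1 cells. Passing in one group and not in another does not show that the groups differ, and the direct comparisons given above did not pass.

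Several of these calls were lost when any 1 of several libraries was left out. Nfkb1 (adjusted p = 0.0354), Tnfaip3 (0.0401) and Tnip1 (0.0414) in 2D-EV cells lay near the threshold with all libraries (edgeR). In 2D-EV cells against control cells, 1 gene was left, Tnfaip2, without control replicate 1, control replicate 3 or 2D-EV replicate 3. In the same comparison 2 were left without 2D-EV replicate 2 and 3 without control replicate 2. In 3D-EV cells against control cells, Tnfaip2 alone was left without 3D-EV replicate 1 or 2, Nfkb1 was lost without control replicate 3 and Tnfaip3 without control replicate 1. Tnfaip3 in 2D-EV cells, with the largest number of lost calls, had adjusted p-values of up to 0.168 in the edgeR fits that left out a library.

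In a test of any difference over the 4 groups, 5 of the 10 genes passed (edgeR; 19.8% of all genes). Tnfaip2 ranked 87 of 14184 by p (adjusted p = 9.09e-07), and Tnfaip3 (0.00458), Nfkbia (0.0113), Icam1 (0.017) and Nfkb1 (0.0441) followed. Tnip1 (adjusted p = 0.111), Relb (0.126), Birc3 (0.346), Rela (0.659) and Nfkb2 (0.896) did not pass.

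The order of groups differed from gene to gene. Tnfaip2 averaged 143 ± 4.68 CPM in 3D-EV cells, 144 ± 3.22 in 2D-EV cells, 148 ± 3.03 in TGF-beta1 cells and 109 ± 1.35 in control cells (SD, n = 3 each), and only control cells stood apart from their neighbour in that order. Tnfaip3 ordered as TGF-beta1 cells (31.5 ± 0.473 CPM), then 3D-EV cells (28.9 ± 0.949 CPM) and 2D-EV cells (28.4 ± 1.18 CPM), which overlapped, then control cells (25.0 ± 1.34 CPM). Icam1 was at 170 ± 7.29 CPM in 3D-EV cells and 171 ± 5.12 CPM in control cells, which overlapped, above 2D-EV cells (161 ± 7.81 CPM), which overlapped both, and then TGF-beta1 cells (151 ± 4.22 CPM), which overlapped none of them. Nfkbia was at 24.6 ± 1.14 CPM in 3D-EV cells, 22.1 ± 0.949 CPM in 2D-EV cells, 21.4 ± 1.41 CPM in TGF-beta1 cells and 26.2 ± 0.892 CPM in control cells, where 3D-EV and control libraries overlapped, as did 2D-EV and TGF-beta1 libraries.

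Likeness was measured as the root mean square difference over the 12 libraries between log2(CPM + 0.1) values centred on each gene's mean, a description with no test. Among the 10 genes, the pair Nfkb1 and Tnip1 was closest (0.0683) and the pair Nfkbia and Tnfaip2 farthest (0.286). Tnfaip2 and Tnfaip3 differed by 0.0936. Of 10711 genes ranked, the 4 with the pattern most like Tnfaip2 were Itga6, an integrin chain (0.0306), Tp53inp2, a regulator of autophagy (0.0313), Fasn, the fatty acid synthase (0.0359), and Pgd, an enzyme of the pentose phosphate pathway (0.036). For scale, the own variation of Tnfaip2 on this measure was 0.179 and the median distance of all genes from it was 0.206. Itga6 averaged 222 CPM in 3D-EV cells, 219 CPM in 2D-EV cells, 220 CPM in TGF-beta1 cells and 165 CPM in control cells. All points share the 12 libraries and their scaling.

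Around the 10 genes, 4 lists of other pathway genes were counted, 86 of them tested. In TGF-beta1 cells against control cells, 13 rose and 11 fell (27.9%, beside 22.0% of all genes). Among 29 tested receptors, adaptors and kinases upstream of NF-kB, 2 rose, 1 fell and 26 did not pass (10.3% called). Their median log2 fold change was 0.02, against -0.01 over all genes. Irak3, a pseudokinase that dampens Toll-like receptor signalling, fell to 53.6 ± 2.71 CPM in TGF-beta1 cells, against 67.7 ± 1.56 CPM in control cells (mean and SD of 3 libraries, as for the genes below; log2 fold change -0.34, adjusted p = 0.000469, edgeR). Irak4, the kinase of the Myd88 complex, rose (TGF-beta1 25.3 ± 2.75, control 20.5 ± 1.80 CPM, 0.30, adjusted p = 0.0228), and so did Ltbr, the lymphotoxin beta receptor (TGF-beta1 155 ± 7.14, control 142 ± 4.08 CPM, 0.12, adjusted p = 0.0239). Irak4 no longer passed without TGF-beta1 replicate 1 or 2, or without control replicate 2 or 3, and Ltbr without TGF-beta1 replicate 2 or 3, or without control replicate 2 or 3. The list then held 1 call without control replicate 2 or 3.

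Among 22 tested other subunits and inhibitors, 3 rose, 4 fell and 15 did not pass, with a median of 0.04. The share called was 31.8%, beside 22.0% of all genes. Rbck1, a part of the complex that builds linear ubiquitin chains, fell to 89.5 ± 1.56 CPM in TGF-beta1 cells against 101 ± 1.48 CPM in control cells (log2 fold change -0.17, adjusted p = 0.00355, edgeR). Pdlim2, which promotes degradation of the Rela product (TGF-beta1 20.9 ± 1.20, control 25.0 ± 0.612 CPM, -0.26), and Nlrc5, an activator of class I antigen presentation genes (TGF-beta1 7.68 ± 0.581, control 10.2 ± 0.404 CPM, -0.41), fell too. Sqstm1, an adaptor of signalling and autophagy, rose (TGF-beta1 557 ± 3.43, control 510 ± 6.31 CPM, 0.13, adjusted p = 0.00297), as did Tollip, a Toll-interacting adaptor (TGF-beta1 109 ± 2.19, control 97.0 ± 2.11 CPM, 0.17), and Usp18, a protease of the interferon response (TGF-beta1 19.8 ± 2.72, control 15.5 ± 1.82 CPM, 0.36). Tollip and Usp18 were not called without control replicate 3 or TGF-beta1 replicate 2, Tollip also not without control replicate 2, and Usp18 also not without control replicate 1 or TGF-beta1 replicate 3. The list held 4 calls without control replicate 3.

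Among 33 tested other induced genes, 8 rose, 5 fell and 20 did not pass, with a median of 0.06. The share called was 39.4%, beside 22.0% of all genes, and the difference was not tested. Those with the smallest adjusted p are given here. Tnfaip6, a secreted hyaluronan-binding protein, rose 2.03-fold in TGF-beta1 cells (24.2 ± 2.02 against 11.9 ± 0.907 CPM in control cells, adjusted p = 1.12e-06, edgeR). Relt, a receptor of the tumour necrosis factor receptor family, rose 1.94-fold (TGF-beta1 7.57 ± 0.180, control 3.91 ± 0.451 CPM), and Ptgs2, the inducible prostaglandin synthase, 1.63-fold (TGF-beta1 19.0 ± 0.875, control 11.7 ± 0.197 CPM). Csf1, the macrophage colony-stimulating factor, fell to 76.0 ± 2.72 CPM against 98.9 ± 3.98 CPM in control cells (log2 fold change -0.38, adjusted p = 1.55e-05). Irf1, a transcription factor of the interferon response, fell too (TGF-beta1 13.1 ± 0.620, control 18.2 ± 1.38 CPM, -0.47), as did Bcl2l1, which restrains apoptosis (TGF-beta1 91.1 ± 3.83, control 103 ± 5.23 CPM, -0.18). Bcl2l1 was not called with replicate 1 or 2 of either group left out.

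Ligands that activate the pathway were scarce. Of 13 listed, 11 did not pass the filter on low counts, among them Tnf, Il1a and Il1b, so their levels were not compared. Il33, a cytokine of the interleukin-1 family, fell to 3.39 ± 0.421 CPM in TGF-beta1 cells, against 6.08 ± 0.266 CPM in control cells (log2 fold change -0.84, adjusted p = 0.000296, edgeR). Its libraries stood at 2.93, 3.76 and 3.46 CPM in TGF-beta1 cells and at 6.20, 5.78 and 6.27 CPM in control cells, far from overlapping. Tnfsf12, the only other ligand tested, did not pass (TGF-beta1 15.1 ± 0.584, control 16.8 ± 0.815 CPM, log2 fold change -0.15, adjusted p = 0.368, edgeR).

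**Figure D4:**
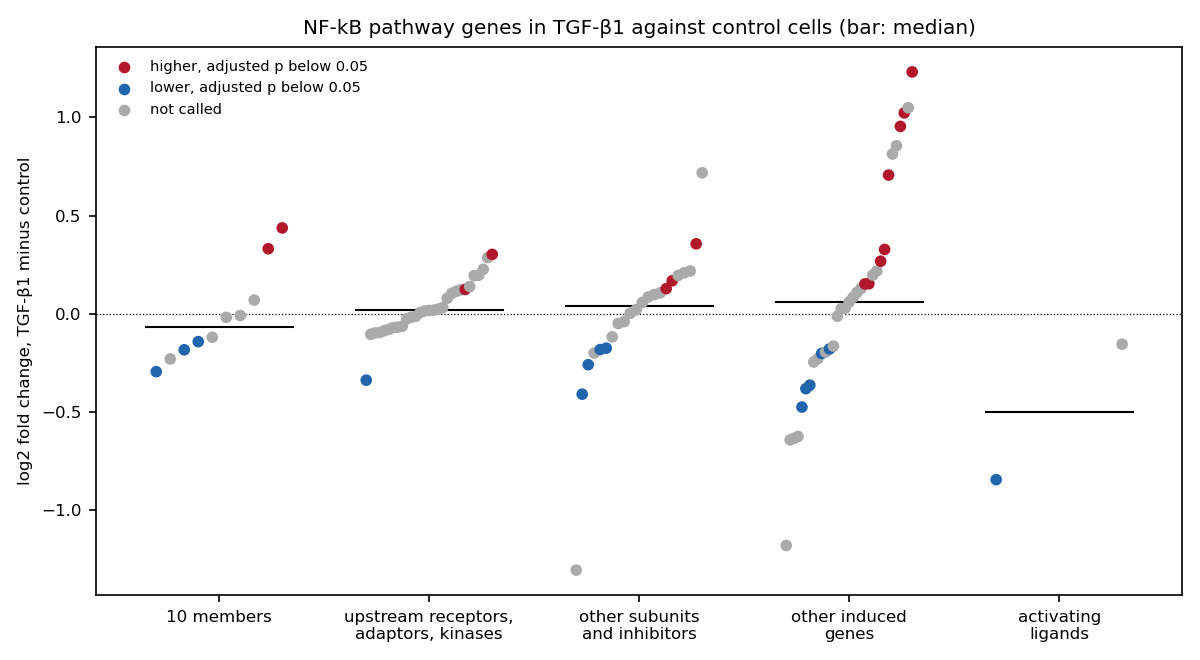
Log2 fold changes in TGF-beta1 cells against control cells of the 10 genes and of the 86 tested genes in 4 pathway lists (points; bars are list medians; red and blue mark adjusted p below 0.05). Upstream genes lie near 0 with 3 of 29 called, while other induced genes spread in both directions with 13 of 33 called. Of all genes tested, 22.0% were called.

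In both EV groups against TGF-beta1 cells, and in 3D-EV against 2D-EV cells, 0 of the 86 listed genes passed with edgeR. In 3D-EV cells against TGF-beta1 cells, 17 had an unadjusted p below 0.05, beside 1027 of all 14184 genes. Of the 86, limma-voom called 0 and DESeq2 called 4, beside 13 calls of DESeq2 over all genes. In 2D-EV cells against TGF-beta1 cells, 11 had an unadjusted p below 0.05, beside 1007 of all genes. In 3D-EV against 2D-EV cells 13 had one, beside 978 of all genes. In both, 0 of the 86 were called by DESeq2 and 0 by limma-voom. Against control cells, 18 of the 86 rose and 6 fell in 3D-EV cells (27.9%, beside 23.0% of all genes), and 10 rose and 6 fell in 2D-EV cells (18.6%, the same as the 18.6% of all genes). Both share the control libraries.

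The 4 genes called by DESeq2 in 3D-EV cells were looked at after their values were seen. With DESeq2 on all genes above 0, only Csf1 of the 4 was still called (adjusted p = 0.0278). C3, the central complement component, reached 5.50, 9.34 and 3.72 CPM with 3D-EVs, against 2.44, 2.30 and 2.86 CPM in TGF-beta1 cells (DESeq2 adjusted p = 0.0018, edgeR 0.405). Ccl20, a chemokine, reached 2.93, 5.24 and 1.82 CPM with 3D-EVs, against 1.61, 0.899 and 0.852 CPM in TGF-beta1 cells (DESeq2 adjusted p = 0.0197, edgeR 0.455). For both, replicate 2 of the 3D-EV group was highest and replicate 3 lowest, and 3D-EV and TGF-beta1 libraries did not overlap. Of all genes, 13.6% did not overlap, and these were picked by a test on the same libraries, so this adds no support. With 2D-EVs, C3 reached 4.02, 4.19 and 3.72 CPM, all above TGF-beta1 cells too, and Ccl20 1.49, 1.25 and 2.04 CPM, which overlapped them. In control cells C3 was at 1.72 to 2.60 CPM, and Ccl20 was at 1.25 to 2.38 CPM, within which the lowest 3D-EV library fell.

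Lcn2, a siderophore-binding protein released by injured tubules, reached 11.1, 13.7 and 11.6 CPM with 3D-EVs, against 7.76, 8.18 and 7.97 CPM in TGF-beta1 cells (DESeq2 adjusted p = 0.00228, edgeR 0.405). Csf1 reached 86.0, 87.0 and 88.6 CPM with 3D-EVs, against 73.9, 74.9 and 79.0 CPM in TGF-beta1 cells (DESeq2 adjusted p = 0.0471, edgeR 0.442). The 3D-EV and TGF-beta1 libraries did not overlap for either gene, which again adds no support, since a test on these libraries picked them. With 2D-EVs, Lcn2 reached 11.3, 8.72 and 9.58 CPM and Csf1 87.4, 81.7 and 80.2 CPM, also all above TGF-beta1 cells. In control cells Lcn2 was at 9.54 to 11.2 CPM and Csf1 at 94.5 to 102 CPM.

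The edgeR count depended on replicate 3 of the 3D-EV group. Without it, edgeR called C3 (log2 fold change 1.54, adjusted p = 0.0442) and Cxcl1 (0.87, adjusted p = 0.0231) in 3D-EV cells against TGF-beta1 cells, and Cxcl1 against 2D-EV cells (0.85, adjusted p = 0.017). Over all genes, fits that left out a library gave at most 2 calls against TGF-beta1 cells and at most 3 against 2D-EV cells. Cxcl1, a neutrophil-attracting chemokine, stood at 47.0, 63.8 and 34.1 CPM with 3D-EVs and 28.0, 32.0 and 32.4 CPM with 2D-EVs, against 30.7, 28.7 and 31.2 CPM in TGF-beta1 cells. In 3D-EV replicate 3, Icam1 (161 CPM), Tnfaip2 (139 CPM), Rela (65.1 CPM) and Tnfaip3 (27.9 CPM) were also the lowest of their group. Nfkb1 (56.2 CPM) and Nfkb2 (35.4 CPM) were the highest of their group there. Nfkbia, Tnip1, Relb and Birc3 lay between the other 3D-EV libraries.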

How the data were processed

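Per the labels' protocols, total RNA was prepared with TRIzol and DNase I. The submitters' processing notes name the build mRatBN7.2 and the tools DESeq2, StringTie, HISAT2 and fastp. Not given in the sources used here are versions, counting settings and strand handling. Deposited values were whole-number counts per gene that the authors did not normalize. The 12 tables per library were identical to the joint table, in which the value 1 filled 1514 cells and the value 2 5687, so the smallest values do not follow plain read counting.

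The analysis used edgeR 4.0.16 (R 4.3.3): filterByExpr (minimum count 10; 14184 of 24660 genes kept), TMM factors of 0.983 to 1.03, 1 fit of 4 group means over 12 libraries, quasi-likelihood F-tests and Benjamini-Hochberg adjustment over all genes tested, threshold 0.05. SE was the log2 fold change divided by the root of F. Alternatives were other size factors, DESeq2 1.42.0, limma-voom 3.58.1, other filters, the 2 groups alone, a replicate block and each library left out. The code was tested on simulated counts with 200 changed genes. Within groups, libraries differed by more than counting error, and none was a duplicate. Libraries with the same number were not treated as paired, since the labels do not say that the numbers pair samples. Residuals of 18 pairs with the same number correlated by -0.067 to 0.045, none above 0.1.

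The 10 genes and the 4 lists were chosen with earlier results of these data known. Other pathway genes were named by smallest adjusted p in TGF-beta1 against control cells, up to 3 that rose and 3 that fell per list; C3, Ccl20, Lcn2 and Cxcl1 were named after their values were seen. Commd1 and Saa3 were listed but not analysed here. Some genes that the naming rules select are not reported here. Intervals cover the spread between libraries.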

Additional observations from a re-analysis of the deposited data

How the results depend on the processing

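Over the alternatives, the 23 member comparisons with a call or an unadjusted p below 0.05 kept their direction in all 318 refits: 281 stayed on the same side of the threshold, 34 lost a call and 3 gained one. The other 37 changed sign in 31 of 507 refits, each with a library left out and at most 0.0582 (absolute log2 fold change). Of 224 refits of the 16 named pathway genes, 204 stayed on the same side and 0 reversed. The cause of the following shifts was not tested. In 2D-EV against control cells, 5 members became 3 with no filter on low counts, 2 with only these 2 groups and 1 to 4 with a library left out. In 3D-EV against control cells, 3 became 1 to 3 with a library left out. The main fit called 18.6% and 23.0% of all genes in these 2 comparisons. All-gene counts of these refits are not given here, so the losses are not shown to be particular to the members. In 3D-EV against TGF-beta1 cells, DESeq2 on all genes above 0, chosen after seeing the data, called 1 member (Icam1). Over all genes, 2D-EV against TGF-beta1 cells gave 4 calls, against 56 with DESeq2, 54 with DESeq2 on all genes above 0, 9 with limma-voom, 14 with no filter, 7 with only these 2 groups and 1 to 3 with a library left out. For 3D-EV against TGF-beta1 cells the 0 became 13, 21 and 0 to 2 (DESeq2, DESeq2 on all genes above 0, a library left out). For 3D-EV against 2D-EV cells the 1 became 21, 35, 2 with limma-voom, 8 with no filter, 2 with only these 2 groups and 1 to 3 with a library left out. Among pathway lists, leaving out a library gave 1 to 3 upstream calls (from 3) and 4 to 6 other subunits and inhibitors (from 7) in TGF-beta1 against control cells, 10 to 14 listed genes in 2D-EV against control cells (from 16), and 0 to 2 and 0 to 1 in 3D-EV against TGF-beta1 and 2D-EV cells (from 0); DESeq2 called 4 in 3D-EV against TGF-beta1 cells, and 1 on all genes above 0. Depth limits Relb and Birc3 most.

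With the replicate number as a block, 2858 genes were called in TGF-beta1 against control cells (3124 without), 2362 in 2D-EV (2642) and 2957 in 3D-EV against control cells (3262), and 2 in 3D-EV against 2D-EV cells (1). Members called under the block were 5, 4 and 3 against control cells and 0 in the other 3 comparisons; Tnfaip3 in 2D-EV cells was lost, and so was Nfkb1 over the 4 groups. The libraries share only a number, and 5 of 12 correlated best with their own.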
